A study of Mus musculus with 6 samples.

Results

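Replication-dependent histone genes are the multicopy genes that supply histones during DNA replication, and in the count tables they carry symbols of the form Hist1h to Hist4h. The symbol rule matched 69 of the 24984 gene symbols listed. Of these, 60 had at least 10 raw counts summed over the 6 libraries and were tested. They comprised all 6 linker H1 genes, 15 of 19 H2A genes, 17 of 19 H2B genes, 10 of 12 H3 genes and 12 of 13 H4 genes. The other 9, namely Hist1h2ao, Hist1h2ap, Hist1h2bq, Hist1h2br, Hist1h4m, Hist2h2aa1, Hist2h2aa2, Hist2h3c1 and Hist2h3c2, had 0 counts in every library.

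The libraries came from mouse E14TG2a embryonic stem cells grown in the serum-free medium N2B27, and the series was designed around the RNA modification m6A and circular RNA. METTL3 is the enzyme subunit that writes m6A. Total RNA was depleted of ribosomal RNA and made into strand-marking sequencing libraries. The KO group (2 libraries) carried a CRISPR/Cas9 disruption of Mettl3. The D395A group (2 libraries) carried the METTL3 D395A change, which replaces an aspartate of the catalytic site and was introduced with CRISPR/Cas9 by homology-mediated end joining. The WT group (2 libraries) carried neither change, and all 3 groups shared the parental line and the medium. Nothing in the labels ties the libraries of 1 group to separate cultures or clones, so each p-value below measures the spread between these libraries, which may be technical.

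Replication-dependent histone mRNAs are made in S phase from intronless genes and, alone among metazoan mRNAs, usually end without a poly(A) tail. Their 3′ end is a conserved stem-loop that the protein SLBP binds, formed by cleavage with the U7 small nuclear ribonucleoprotein, and the coactivator NPAT drives their transcription at histone locus bodies. H3 and H4 form the centre of the nucleosome, H2A and H2B flank it, and linker H1 binds the DNA where it enters and leaves.

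The 3′ stem-loop is shown first because it is the feature by which the class is processed. A search of the GENCODE M21 transcripts for the letters GGNNNTNTNNANNNCC with at least 5 of 6 paired stem positions found it in 44 of the 69 members (63.8%) and in 947 of 21884 other protein-coding genes (4.33%). Many of the remaining members have annotated transcripts that stop at or near the coding sequence. All 33 loops found in H1, H2A, H2B and H3 genes opened with GGCTC. Of the 11 in H4 genes, 9 opened with GGCCC and 2 with GGTCC. The search took a match anywhere in a transcript, not only at its 3′ end. In the examples below the annotated transcript runs on past the loop, by 151 bases in Hist1h2ae and up to 1257 in Hist2h4. These examples belong to members whose values follow, and capitals mark the stem and loop.
Hist1h1c: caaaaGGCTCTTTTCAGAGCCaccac
Hist1h2ae: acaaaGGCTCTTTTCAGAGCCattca
Hist1h2bg: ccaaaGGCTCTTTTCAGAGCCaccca
Hist3h2ba: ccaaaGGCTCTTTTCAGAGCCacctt
Hist1h3e: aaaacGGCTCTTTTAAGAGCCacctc
Hist1h4d: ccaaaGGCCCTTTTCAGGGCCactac
Hist2h4: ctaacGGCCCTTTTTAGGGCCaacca
The capitals are the same 16 letters in Hist1h2bg and in Hist3h2ba, an H2B pair of which the first was called higher and the second lower in both mutant groups. This pair was picked with its values known, and any link between the loop and the calls was not tested.

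Promoter windows of 250 bases before the gene start were taken from RefSeq (GRCm38.p6), which held 61 of the 69 members. A CCAAT box (letters CCAAT, either strand) was present in 82.0% of the members' windows and in 33.8% of all 32851 windows. A TATA box (TATAAA, either strand) was present in 47.5% of members and in 12.4% of all windows. The octamer ATTTGCAT, read on either strand, was found in 7 H2A and 7 H2B windows and in no H1, H3 or H4 window. Its share was 23.0% of members and 1.6% of all windows. The windows of 2 H2B genes that hold all 3 motifs are printed, with the motifs in capitals. Their RNA moved in opposite directions, and the pair was picked with these values known. Any link between the motifs and the direction was not tested. Hist1h2bg lies on chromosome 13 with its window at chr13:23571150-23571399, plus strand. Hist1h2ba has its window at chr13:23934157-23934406, minus strand. In these windows no match overlaps another.
Hist1h2bg: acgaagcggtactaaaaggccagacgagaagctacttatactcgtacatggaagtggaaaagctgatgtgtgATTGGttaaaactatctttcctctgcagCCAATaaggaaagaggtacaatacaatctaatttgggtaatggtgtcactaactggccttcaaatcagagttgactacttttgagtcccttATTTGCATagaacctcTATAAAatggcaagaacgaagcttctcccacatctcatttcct
Hist1h2ba: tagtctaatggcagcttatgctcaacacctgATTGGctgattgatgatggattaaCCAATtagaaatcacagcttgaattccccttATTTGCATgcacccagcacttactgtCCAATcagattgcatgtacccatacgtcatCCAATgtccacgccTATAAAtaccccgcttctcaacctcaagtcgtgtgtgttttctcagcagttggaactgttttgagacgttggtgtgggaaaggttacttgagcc

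The libraries held 35851584 and 35613626 gene counts in KO, 22859491 and 35784699 in D395A, and 40476809 and 36136543 in WT. Mettl3 was at 7.85 and 6.18 CPM (counts scaled to library size with TMM factors) in KO, 21 and 23.4 CPM in D395A and 28.5 and 31.5 CPM in WT, so every KO library was below every other. The log2 fold change was -2.09 ± 0.11 (SE) in KO (adjusted p = 5.2e-10) and -0.43 ± 0.10 in D395A (adjusted p = 0.0017), both by edgeR's quasi-likelihood test with Benjamini-Hochberg adjustment over 17546 genes. A total of 59.6% of these genes were called different in KO against WT at adjusted p under 0.05, 64.2% in D395A against WT and 44.8% in D395A against KO, so being called is common among all genes here.

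D395A replicate 1 stood apart in histone RNA. It was above D395A replicate 2 for 58 of the 60 members, with a median log2 ratio of 0.38, against a median of -0.05 over 13048 genes averaging at least 1 CPM. It was also the library with the fewest gene counts and the largest share of reads outside annotated genes, 37.33%. That share was 33.84% in D395A replicate 2, 31.14% and 22.34% in KO and 30.24% and 30.22% in WT. In KO, replicate 1 was above replicate 2 for 14 of the 15 H2A members (median log2 ratio 0.47), while the median over all 60 members was 0.05. In WT the median ratio over the 60 members was -0.04. The S phase gene list had a median ratio of -0.03 between the D395A libraries. What set these libraries apart was not tested.

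**Figure D1:**
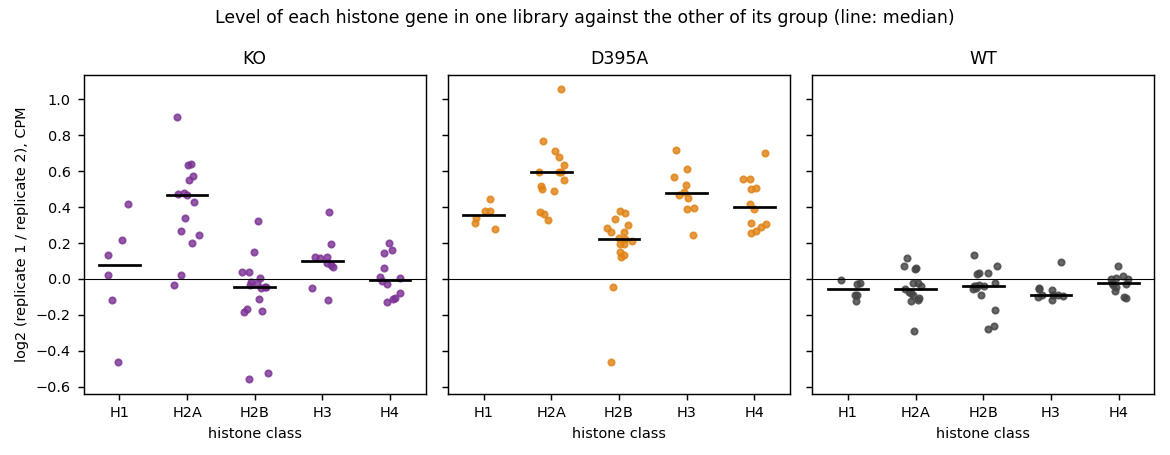
Each point is 1 histone gene, plotted as the log2 ratio of its CPM in replicate 1 over replicate 2 of the same group (vertical axis) by histone class (horizontal axis), with a line at the class median. D395A points lie above 0 for 58 of 60 genes, KO points are spread upward mainly in H2A, and WT points lie between -0.28 and 0.14.

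Histone RNA took a larger share of the libraries in both mutant groups. The 60 genes together held 1.398% and 1.311% of gene counts in KO, 2.067% and 1.544% in D395A and 1.206% and 1.245% in WT. Summed levels were 14296 and 13479 CPM in KO, 19987 and 15356 CPM in D395A and 11990 and 12387 CPM in WT. The groups did not overlap, with KO between WT and D395A. Rn45s, a ribosomal RNA precursor counted among the genes, held 16.7% and 15.72% of gene counts in KO, 14.28% and 13.88% in D395A and 10.83% and 11.15% in WT, and its part in these shares was not tested. The ratio of group means was 1.14 for KO over WT and 1.45 for D395A over WT, and D395A replicate 2 alone was at 1.26 times the WT mean. Exact permutation over 2 against 2 libraries cannot reach a p under 0.05, and the sums were not tested. In bulk RNA, fewer or more cells in S phase and less or more histone RNA per cell cannot be told apart.

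**Figure D2:**
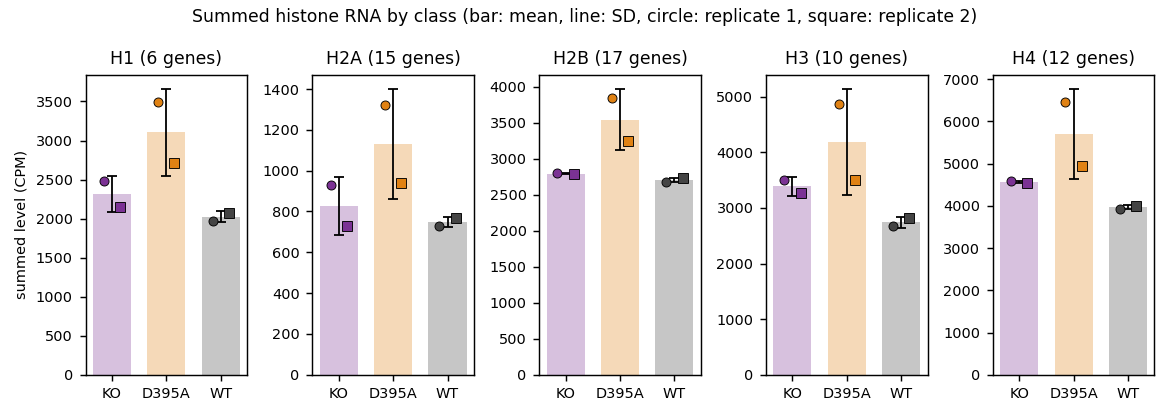
Summed CPM of the tested genes of each histone class (vertical axes, starting at 0) in KO, D395A and WT. Bars are means, lines the SD of 2 libraries, circles replicate 1 and squares replicate 2. Both D395A libraries are above both WT libraries in every class. In H2A the KO libraries lie at 1.24 and 0.972 times the WT mean, so KO spans WT there.

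By single gene, 23 of the 60 members were called higher and 11 lower in KO against WT, with 26 not called. Among all genes tested 30.4% were called higher and 29.2% lower. The members' median log2 fold change was 0.21, against 0.02 over all genes. In D395A against WT, 43 members were called higher and 7 lower, where 33.5% of all genes were called higher and 30.7% lower. The median was 0.56, against 0.03 over all genes. Both comparisons use the same WT libraries. In D395A against KO, 40 members were called higher and 0 lower (edgeR), against 23.3% and 21.5% of all genes, with a median of 0.37 against 0.04. At an unadjusted p under 0.05 edgeR had 45 higher and 1 lower. DESeq2 and limma-voom called 0 lower there too (23 and 39 higher), and without D395A replicate 1 the lower count was 3 and the higher count 19. The KO count is the least firm: 8 members were called higher without WT replicate 1 and 13 without WT replicate 2, whereas the lower count stayed between 8 and 14. Without D395A replicate 1, D395A against WT still gave 38 higher and 9 lower.

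**Figure D3:**
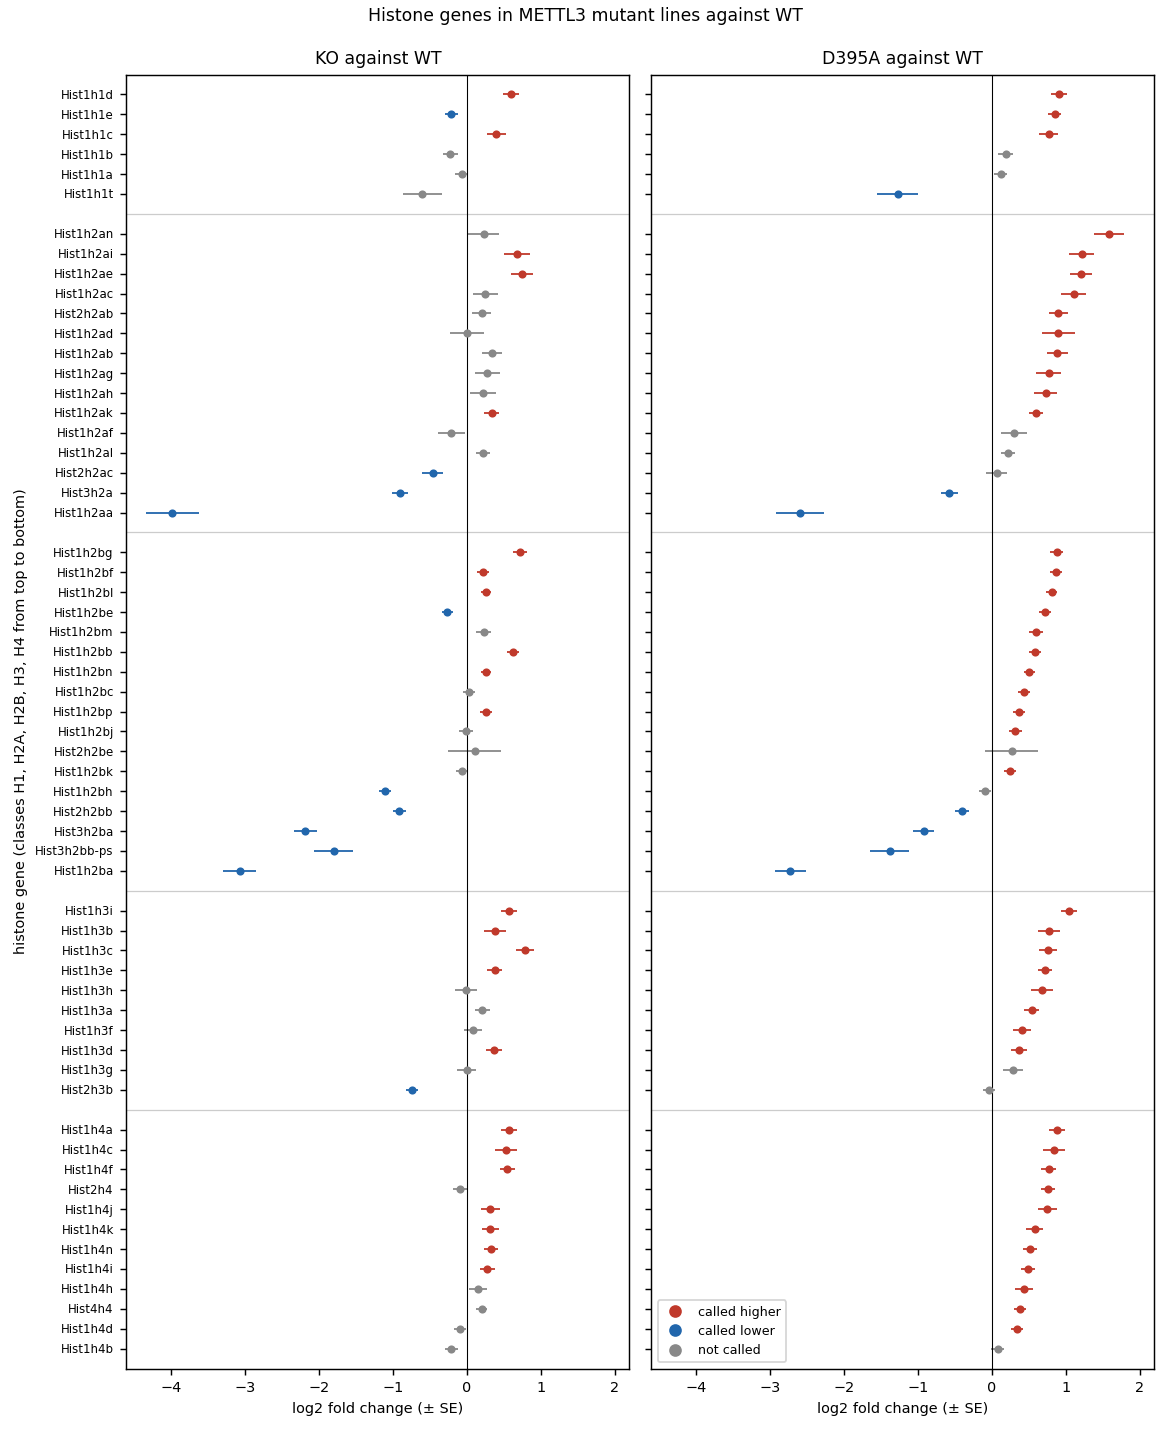
Log2 fold change with its SE (horizontal axis) for the 60 tested histone genes, grouped by class from H1 at the top to H4 at the bottom, in KO against WT (left) and D395A against WT (right). Red marks genes called higher, blue genes called lower and grey those not called. In D395A 43 genes are red, and the genes furthest to the left in both panels are Hist1h2aa and Hist1h2ba.

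Among the 6 linker H1 genes, 2 were called higher (33.3%, against 30.4% of all genes), 1 lower (16.7%, against 29.2%) and 3 were not called in KO (median log2 fold change -0.14), and in D395A 3 were called higher, 1 lower and 2 were not called (median 0.48). In D395A 33.5% of all genes were called higher and 30.7% lower. The D395A median was 0.26 without D395A replicate 1, and 5 genes were called higher without D395A replicate 2. In KO 1 gene was called higher when KO replicate 1 or either WT library was left out, and the gene called lower was lost when either WT library was left out. Hist1h1c, the most abundant linker gene of these libraries by CPM, was at 873 and 654 CPM in KO, 1140 and 839 CPM in D395A and 561 and 596 CPM in WT. Both mutant groups were wholly above WT, although KO replicate 2 was near it. Fold changes on the log2 scale were 0.40 ± 0.13 in KO (adjusted p = 0.016) and 0.77 ± 0.13 in D395A (adjusted p = 0.0001). The KO call was lost with DESeq2 and when KO replicate 1 (0.18), WT replicate 1 (0.36) or WT replicate 2 (0.44) was left out.

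Hist1h1d (chr13:23553262-23560686 in GRCm38, a single annotated exon) was at 645 and 554 CPM in KO, 842 and 649 CPM in D395A and 379 and 412 CPM in WT. Every mutant library was above both WT libraries, with log2 fold changes of 0.60 ± 0.11 in KO (adjusted p = 0.00017) and 0.91 ± 0.11 in D395A (adjusted p = 2.3e-06). Hist1h1a and Hist1h1b were not called against WT in either group. Hist1h1a was at 513 and 505 CPM in KO, 642 and 517 CPM in D395A and 529 and 537 CPM in WT, so D395A overlapped WT. Hist1h1b was at 168 and 182 CPM in KO, 264 and 203 CPM in D395A and 202 and 206 CPM in WT. It was called higher in D395A against KO, by a log2 fold change of 0.42 ± 0.10 (adjusted p = 0.0028). Without D395A replicate 2 both were called higher in D395A against WT (0.27 for Hist1h1a, 0.37 for Hist1h1b). Hist1h1b had a log2 fold change of -0.22 in KO and was called lower there in 7 of the 14 alternatives, namely without the count filter (adjusted p = 0.0048), with limma-voom, in the fit of KO and WT alone (adjusted p = 0.0014), with the replicate block (adjusted p = 0.043), and without D395A replicate 1 (adjusted p = 0.0018), D395A replicate 2 (adjusted p = 0.0021) or KO replicate 2 (-0.28, adjusted p = 0.025).

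Hist1h1e was called in opposite directions in the mutant groups. It was at 277 and 253 CPM in KO, 609 and 503 CPM in D395A and 298 and 317 CPM in WT. The KO libraries lay just below WT and the D395A libraries far above both. Fold changes on the log2 scale were -0.21 ± 0.09 in KO (adjusted p = 0.049), 0.85 ± 0.09 in D395A (adjusted p = 6.2e-07) and 1.07 ± 0.09 in D395A against KO (adjusted p = 1.2e-07). The KO call was lost when KO replicate 2 (-0.15), WT replicate 1 (-0.26) or WT replicate 2 (-0.17) was left out. The H2B gene Hist1h2be was called likewise, with 129 and 133 CPM in KO, 278 and 240 CPM in D395A and 148 and 167 CPM in WT. Its log2 fold change was -0.26 ± 0.08 in KO (adjusted p = 0.013), 0.72 ± 0.08 in D395A (adjusted p = 1.9e-06) and 0.98 ± 0.08 in D395A against KO (adjusted p = 1.5e-07). Its KO call was lost without KO replicate 1 (-0.24) and without WT replicate 2 (-0.17). The annotated exons of these genes overlap on the same strand of chromosome 13, over 25.7% of the exon bases of Hist1h1e. Exons of Gm11398 also overlap both genes on that strand. How reads over the shared bases were counted is not given in the sources used here.

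H2A genes had the largest median difference between D395A and KO with all 6 libraries (0.53), but not without D395A replicate 1 (0.22, against 0.25 for H2B). In KO 3 of the 15 tested H2A genes were called higher and 3 lower (median log2 fold change 0.22), and in D395A 10 were called higher and 2 lower (median 0.77). Of all genes 30.4% were called higher and 29.2% lower in KO, so both H2A counts in KO are below these shares. In D395A the shares of all genes were 33.5% and 30.7%, and for D395A against KO 23.3% and 21.5%. D395A against KO had 13 called higher and 0 lower (edgeR), but 3 higher without D395A replicate 1, 9 without KO replicate 2 and 8 when either WT library was left out. DESeq2 called 5 higher and 0 lower there and limma-voom 13 and 0, and at an unadjusted p under 0.05 edgeR had 0 lower. The KO median was -0.06 without KO replicate 1 and 0.44 without KO replicate 2, with 2 and 9 genes called higher. DESeq2 called 1 H2A gene higher in KO, against 5 with the replicate block, 6 in the fit of KO and WT alone and 9 without the count filter. The median was 0.21 and 0.24 without WT replicate 1 and 2, with 1 and 2 called higher, and 6 were called higher in KO when either D395A library was left out. Without D395A replicate 1 the D395A median was 0.43, with 9 genes called higher.

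Hist1h2ak had the highest mean CPM of the H2A genes, at 295 and 249 CPM in KO, 361 and 288 CPM in D395A and 208 and 221 CPM in WT. Both mutant groups were above WT, with log2 fold changes of 0.34 ± 0.10 in KO (adjusted p = 0.0086) and 0.60 ± 0.10 in D395A (adjusted p = 0.0001). DESeq2 did not call it in KO, nor did edgeR when KO replicate 1 (0.21), WT replicate 1 (0.30) or WT replicate 2 (0.39) was left out. Hist1h2ae, whose 3′ stem-loop is printed above, was at 145 and 104 CPM in KO, 201 and 143 CPM in D395A and 71.1 and 77.5 CPM in WT. It was the H2A gene with the largest rise in KO, 0.75 ± 0.15 (adjusted p = 0.00043), and reached 1.21 ± 0.15 in D395A (adjusted p = 3.7e-06).

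Hist1h2an rose most in D395A. It was at 26.0 and 16.7 CPM in KO, 69.7 and 40.9 CPM in D395A and 18.6 and 17.7 CPM in WT. The D395A libraries were apart from the rest, whereas KO lay on both sides of WT. In log2 terms D395A differed by 1.59 ± 0.20 from WT (adjusted p = 5.7e-06) and by 1.36 ± 0.20 from KO (adjusted p = 5.4e-05). In KO the difference from WT was 0.23 ± 0.21 (adjusted p = 0.36). Only 14.2% of its 50-base words are unique to it among annotated transcripts, and 80.5% occur in Hist1h2ah, so its level depends on how the authors' counting treated reads shared by these copies.

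In KO 6 of 17 H2B genes were called higher and 6 lower, 35.3% each against 30.4% and 29.2% of all genes. The median log2 fold change was 0.03. In D395A 11 were called higher (64.7%, against 33.5%) and 4 lower (23.5%, against 30.7%), with a median of 0.37. The KO higher count was 2 without WT replicate 1, 4 without WT replicate 2 and 4 without KO replicate 2. Hist1h2bg had the highest H2B CPM and the largest H2B rise, at 845 and 763 CPM in KO, 985 and 821 CPM in D395A and 483 and 497 CPM in WT. All 4 mutant libraries exceeded both WT libraries. The log2 fold change was 0.72 ± 0.09 in KO (adjusted p = 3.6e-06), 0.88 ± 0.09 in D395A (adjusted p = 3.5e-07) and 0.17 ± 0.09 between D395A and KO (adjusted p = 0.13). Hist1h2bh, named after its values were seen, was at 38.9 and 44.0 CPM in KO, 89.1 and 78.0 CPM in D395A and 89.8 and 88.1 CPM in WT. Its log2 fold change was -1.10 ± 0.08 in KO (adjusted p = 1.4e-08) and -0.09 ± 0.08 in D395A (adjusted p = 0.30).

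Hist2h2bb (chr3:96269752-96270132, plus strand) was the second H2B gene by CPM and moved the other way from Hist1h2bg. It was at 386 and 434 CPM in KO, 635 and 529 CPM in D395A and 777 and 759 CPM in WT. The 3 groups did not overlap, with KO lowest, and the log2 fold change was -0.91 ± 0.09 in KO (adjusted p = 3.4e-07), -0.40 ± 0.09 in D395A (adjusted p = 0.00091) and 0.51 ± 0.09 in D395A against KO (adjusted p = 0.00023). Its annotated exon is shared with Gm42743 over 59.3% of its bases on the same strand and overlaps Gm20628 in full on the other strand, and reads of these cannot be assigned with certainty.

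H3 genes were mostly called higher or not called. In KO 5 of 10 were called higher and 1 lower (median log2 fold change 0.29), and in D395A 8 were called higher and 0 lower (median 0.61). Of all genes 30.4% were called higher and 29.2% lower in KO, and 33.5% and 30.7% in D395A. DESeq2 gave 6 higher and 0 lower in D395A, limma-voom 8 and 0, and edgeR had 0 lower at an unadjusted p under 0.05. Without D395A replicate 1, edgeR gave 6 higher and 1 lower with a median of 0.34. The KO higher count was 2 without WT replicate 1, 3 without WT replicate 2 and 2 with DESeq2. Hist1h3e, the most abundant H3 gene by CPM and per coding kilobase, was at 983 and 925 CPM in KO, 1380 and 1050 CPM in D395A and 711 and 755 CPM in WT. Its libraries were ordered D395A, KO, WT without overlap. Its log2 fold change was 0.38 ± 0.10 in KO (adjusted p = 0.0045) and 0.72 ± 0.10 in D395A (adjusted p = 1.5e-05), and the KO call was lost without WT replicate 1 (0.34) and with DESeq2.

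Hist1h3c had the largest H3 rise in KO, at 584 and 554 CPM in KO, 659 and 458 CPM in D395A and 324 and 335 CPM in WT. Mutant libraries were all above WT while D395A spanned KO. Against WT the log2 fold change was 0.79 ± 0.12 in KO (adjusted p = 3.5e-05) and 0.76 ± 0.12 in D395A (adjusted p = 4.5e-05). Hist1h3i rose most in D395A, with 345 and 330 CPM in KO, 545 and 394 CPM in D395A and 219 and 235 CPM in WT. Its log2 fold change was 0.57 ± 0.11 in KO (adjusted p = 0.00039) and 1.05 ± 0.11 in D395A (adjusted p = 9e-07). Hist2h3b was the H3 gene called lower in KO, at 108 and 112 CPM in KO, 194 and 164 CPM in D395A and 180 and 187 CPM in WT. The KO libraries were below all others, with a log2 fold change of -0.74 ± 0.08 (adjusted p = 1.1e-06), and D395A spanned WT at -0.04 ± 0.08 (adjusted p = 0.70). D395A exceeded KO by 0.70 ± 0.08 (adjusted p = 3.9e-06). Only 20.3% of the 50-base words of Hist2h3b are unique to it, and 79.7% occur in Hist2h3c1, which had 0 counts. Its exon also overlaps Gm20628 in full on the other strand. For Hist1h3i 12.4% of words are unique and 79.3% occur in Hist1h3h. The levels of both genes thus depend on how the authors' counting treated shared reads.

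Most H4 genes were called higher in both mutant groups. In KO edgeR called 7 of 12 higher (58.3%, against 30.4% of all genes) and 0 lower (against 29.2%). The median log2 fold change was 0.30. In D395A 11 were called higher (91.7%, against 33.5%) and 0 lower (against 30.7%), with a median of 0.55. Hist1h4b was the gene not called in D395A. At an unadjusted p under 0.05, edgeR had 1 lower in KO and 0 in D395A. DESeq2 called 3 higher and 0 lower in KO and 10 higher and 0 lower in D395A, while limma-voom called 8 higher and 1 lower in KO and 11 higher and 0 lower in D395A. Called higher in KO were 2 genes without WT replicate 1, 3 without WT replicate 2 and 5 without KO replicate 1, and called lower were 2 when either D395A library was left out and 1 without KO replicate 2. The D395A median was 0.33 without D395A replicate 1, with 11 still called higher. Against KO, 5 of 12 were called higher in D395A (median 0.29), but 2 without D395A replicate 1 (median 0.03), 12 without D395A replicate 2, and 3 when either WT library was left out.

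Of the 58 members with an annotated coding length, Hist1h4d had the highest level per coding kilobase, 3110 CPM per kilobase in KO, 4220 in D395A and 3320 in WT. Its annotated exon has 1138 bases and its coding sequence 309, so the ranking depends on this choice of length. Levels per exon kilobase were not compared. It was at 966 and 958 CPM in KO, 1420 and 1190 CPM in D395A and 1030 and 1020 CPM in WT. D395A lay above both other groups by a log2 fold change of 0.34 ± 0.08 against WT (adjusted p = 0.0015), while KO was -0.09 ± 0.08 from WT (adjusted p = 0.33). Hist1h4k was at 687 and 615 CPM in KO, 917 and 645 CPM in D395A and 509 and 533 CPM in WT. Its log2 fold change was 0.32 ± 0.12 in KO (adjusted p = 0.029) and 0.58 ± 0.12 in D395A (adjusted p = 0.00053), and the KO call was lost with DESeq2 and without KO replicate 1 (0.24), WT replicate 1 (0.29) or WT replicate 2 (0.36). Both mutant groups were above WT.

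Hist1h4a showed the largest H4 rise against WT, with 475 and 474 CPM in KO, 692 and 489 CPM in D395A and 321 and 320 CPM in WT. All mutant libraries were above WT. Against WT the log2 fold change was 0.57 ± 0.11 in KO (adjusted p = 0.0005) and 0.88 ± 0.11 in D395A (adjusted p = 6.8e-06). Hist2h4, the H4 gene of the Hist2 cluster, was at 185 and 200 CPM in KO, 378 and 314 CPM in D395A and 210 and 200 CPM in WT. D395A alone was apart, by 0.76 ± 0.09 against WT (adjusted p = 1.6e-06) and 0.84 ± 0.09 against KO (adjusted p = 1.1e-06). Hist2h4 in KO was -0.09 ± 0.09 from WT (adjusted p = 0.39).

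Ordered by genomic cluster, the members that edgeR called higher in KO lay in the Hist1 cluster of chromosome 13. This cluster holds 49 of the 60 tested members, so most members lie there whether called or not. Of the 49, 23 were called higher and 5 lower in KO, and 40 higher and 3 lower in D395A. Of the other chromosome 13 genes, 30.9% were called higher in KO and 33.6% in D395A. Hist1h2al, annotated as a processed pseudogene, lies apart from the cluster at chr13:51202727-51203065 and was not called in either group (0.22 in each, adjusted p = 0.057 in KO and 0.061 in D395A). Hist4h4, an H4 gene alone on chromosome 6, was at 453 and 457 CPM in KO, 569 and 466 CPM in D395A and 393 and 400 CPM in WT. All 4 mutant libraries were above WT, and the gene was called in D395A (0.38 ± 0.08, adjusted p = 0.001) but not in KO (0.20 ± 0.08, adjusted p = 0.054). Both Hist1h2al and Hist4h4 were called higher in KO with limma-voom, the replicate block, the fit of KO and WT alone, no count filter, or either D395A library left out. The difference between clusters was not tested. The Hist2 cluster of chromosome 3 (6 tested genes) had 0 called higher and 3 lower in KO and 2 higher and 1 lower in D395A by edgeR, and DESeq2 and limma-voom gave these same counts. Hist2 had 0 higher in KO at an unadjusted p under 0.05 as well. The 3 genes of the Hist3 cluster on chromosome 11 were called lower in both groups, with medians of -1.80 in KO and -0.92 in D395A. Other genes of chromosome 11 had medians of -0.40 in KO and -0.49 in D395A, with 49.9% and 53.3% of 1430 called lower, whereas 28.9% and 30.9% of the other chromosome 13 genes were called lower. Whether the lower level of chromosome 11 has a part in the Hist3 values was not tested.

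Hist3h2ba (chr11:58948920-58949533, plus strand) was at 3.85 and 5.66 CPM in KO, 13 and 10 CPM in D395A and 22.0 and 20.9 CPM in WT. The groups did not overlap and stood in the order KO, D395A, WT. Its log2 fold change was -2.18 ± 0.15 in KO (adjusted p = 1.1e-08), -0.92 ± 0.14 in D395A (adjusted p = 4.4e-05) and 1.26 ± 0.16 in D395A against KO (adjusted p = 1.5e-05). Its neighbours Hist3h2a and Hist3h2bb-ps, the second annotated as a processed pseudogene, had log2 fold changes of -0.90 and -1.80 in KO and -0.57 and -1.38 in D395A. Hist3h2a shares 33.0% of its exon bases with Trim17 on the same strand.

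The largest falls of the set were those of Hist1h2aa and Hist1h2ba, testis-type histone genes, which are known for replacing somatic histones in male germ cells. Hist1h2aa encodes testis H2A and Hist1h2ba testis H2B, and their gene starts lie 305 bases apart on opposite strands of chromosome 13, so their promoter windows, of which that of Hist1h2ba is printed above, share 220 bases. Hist1h2aa was at 0.399 and 0.289 CPM in KO, 1.27 and 0.611 CPM in D395A and 5.58 and 5.37 CPM in WT. Hist1h2ba was at 0.884 and 1.27 CPM in KO, 1.35 and 1.39 CPM in D395A and 8.20 and 9.94 CPM in WT. Every mutant library was below both WT libraries for both genes. The log2 fold change of Hist1h2aa was -3.98 ± 0.36 in KO (adjusted p = 1.4e-07) and -2.59 ± 0.32 in D395A (adjusted p = 4.3e-06). That of Hist1h2ba was -3.07 ± 0.22 in KO (adjusted p = 1e-08) and -2.72 ± 0.21 in D395A (adjusted p = 3e-08). Both stayed called lower in each group under all 14 alternatives.

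Hist1h1t, the testis linker histone, was at 1.80 and 2.48 CPM in KO, 1.52 and 1.20 CPM in D395A and 3.24 and 3.25 CPM in WT. All mutant libraries were lower than WT, and the test called it in D395A (-1.27 ± 0.28, adjusted p = 0.001) but not in KO (-0.60 ± 0.26, adjusted p = 0.063). It was called lower in KO by limma-voom (-0.62), in the fit of KO and WT alone (-0.60, adjusted p = 0.037) and without KO replicate 2 (-0.85). Without these 3 genes the Hist1 cluster held 46 tested members, of which 23 were called higher and 3 lower in KO and 40 higher and 0 lower in D395A (edgeR, 0 lower also at an unadjusted p under 0.05, with DESeq2 and with limma-voom). Of 11 listed testis germ cell markers, Prm1, Prm2 and Acrv1 had 0 counts and Tnp1 and Tnp2 fewer than 10. The sum of the other 6 was 45.7 and 47.2 CPM in KO, 236 and 195 CPM in D395A and 190 and 209 CPM in WT. Of those 6, 1 was called higher (16.7%, against 30.4% of all genes) and 5 lower (83.3%, against 29.2%) in KO. In D395A 1 was called higher (16.7%, against 33.5%) and 2 lower (33.3%, against 30.7%). Dazl, a germ cell RNA-binding protein named after its values were seen, was at 15 and 17 CPM in KO, 12.4 and 10.3 CPM in D395A and 135 and 148 CPM in WT. It was called lower in both groups (-3.14 ± 0.09 in KO and -3.65 ± 0.10 in D395A). Stra8, a meiotic entry gene named likewise, was at 12.6 and 13.8 CPM in KO, 198 and 163 CPM in D395A and 25.2 and 24.9 CPM in WT, and was called lower in KO (-0.92 ± 0.10) and higher in D395A (2.85 ± 0.09). The part of these markers in the testis-type histone values was not tested.

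**Figure D4:**
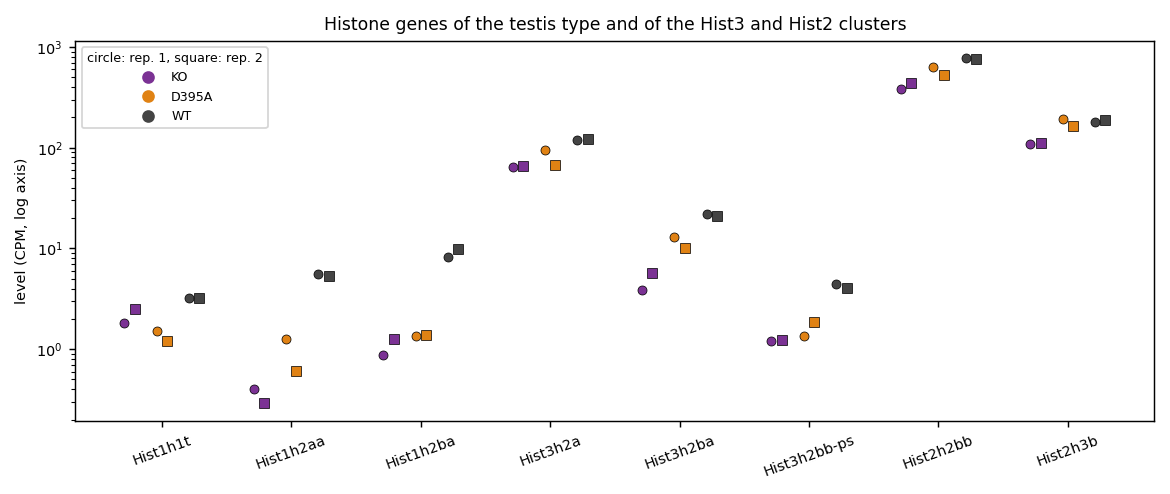
CPM per library on a log axis (vertical) for 8 of the histone genes (horizontal) called lower in at least 1 mutant group. They were picked from the testis type and the Hist2 and Hist3 clusters. Hist1h1e, Hist1h2be, Hist1h2bh and Hist2h2ac were also called lower in KO and are not shown. Purple is KO, orange D395A and grey WT, with circles for replicate 1 and squares for replicate 2. Hist1h2aa and Hist1h2ba are below 2 CPM in all 4 mutant libraries and above 5 CPM in both WT libraries.

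Transcript features were compared with the direction of the calls as a description. Of the 37 tested members with an annotated stem-loop, 16 were called higher and 6 lower in KO and 31 higher and 3 lower in D395A. Of the 23 without one, 7 were called higher and 5 lower in KO and 12 higher and 4 lower in D395A. In KO these were 43.2% higher and 16.2% lower with a stem-loop and 30.4% and 21.7% without. In D395A they were 83.8% and 8.11% with one and 52.2% and 17.4% without. Among all genes 30.4% were called higher and 29.2% lower in KO, and 33.5% and 30.7% in D395A. The letters GGACT, one form of the motif at which m6A is commonly placed, occurred in the transcripts of 21 of the 60 members (35%, 0.666 per kilobase) and of 88.5% of other protein-coding genes (1.06 per kilobase). The members' transcripts are short, with a median length of 532 bases against 2889. A match says only that the letters are there.

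Because the copies resemble each other, members were also divided by how many of their 50-base words occur in no other annotated gene. This share ranged from 6.1% to 100% over the 60 tested members and from 0.0% to 36.5% over the 9 with 0 counts. Of the 36 members with at least 50% unique words, 13 were called higher and 9 lower in KO, and 25 higher and 6 lower in D395A. Of the 24 below 50%, 10 were called higher and 2 lower in KO (41.7% and 8.33%), and 18 higher and 1 lower in D395A (75.0% and 4.17%). Members below 50% whose values are given above include Hist1h2ak (47.7%), Hist2h2bb (46.4%), Hist1h4k (28.5%) and Hist1h3e (26.6%).

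Among genes that act on histone mRNA, more were called lower than higher. Of 40 tested genes of its synthesis, 3′ end processing, export and decay, 5 were called higher and 24 lower in KO (median log2 fold change -0.30) and 9 higher and 21 lower in D395A (median -0.21). The shares over all genes were 30.4% higher and 29.2% lower in KO, and 33.5% and 30.7% in D395A. Slbp, which encodes the stem-loop binding protein, was at 52.2 and 52.6 CPM in KO, 69.5 and 69.5 CPM in D395A and 99.0 and 98.4 CPM in WT. The libraries fell into 3 separate levels, with log2 fold changes of -0.91 ± 0.06 in KO (adjusted p = 7.1e-09) and -0.51 ± 0.06 in D395A (adjusted p = 3.8e-06), and D395A was above KO by 0.41 ± 0.06 (adjusted p = 9.2e-05). Npat, the transcriptional coactivator, was lower in both groups, at -0.35 ± 0.07 in each (adjusted p = 0.00042 in KO and 0.00034 in D395A). Casp8ap2, whose protein FLASH acts in histone locus bodies, was -0.14 ± 0.07 in KO (adjusted p = 0.097) and -0.06 ± 0.07 in D395A (adjusted p = 0.43), with the KO value called in the fit of KO and WT alone, in the fits that leave out either D395A library and at a floor of 1 CPM.

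The genes of the U7 particle differed among themselves. Lsm10 was at 44.4 and 45.5 CPM in KO, 45.1 and 46.5 CPM in D395A and 15.8 and 14.2 CPM in WT. It was the largest rise of the list, 1.58 ± 0.08 in KO (adjusted p = 2e-10) and 1.61 ± 0.08 in D395A (adjusted p = 1.4e-10). Its partner Lsm11 was called lower in KO (-0.35 ± 0.10, adjusted p = 0.0066) but not in D395A (-0.05 ± 0.10, adjusted p = 0.66). The Lsm11 call in KO was lost without KO replicate 1 (-0.26) and without WT replicate 2 (-0.20). The U7 RNA gene Rnu7 had 0 counts. Ddx19b, a helicase of mRNA export, fell most, at -1.57 ± 0.07 in KO (adjusted p = 3.8e-11) and -1.97 ± 0.07 in D395A (adjusted p = 3.6e-12).

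Histone chaperones were mixed. In KO 9 of 31 were called higher (29.0%, against 30.4% of all genes) and 12 lower (38.7%, against 29.2%). In D395A 10 were called higher (32.3%, against 33.5%) and 14 lower (45.2%, against 30.7%). The median was -0.14 in both. Hjurp, the chaperone of the centromeric H3 variant, had log2 fold changes of 1.23 ± 0.09 in KO (adjusted p = 1.4e-08) and 1.42 ± 0.09 in D395A (adjusted p = 2.5e-09). Nasp, a chaperone of H3, H4 and linker histones, was lower, at -0.90 ± 0.07 in both (adjusted p = 1.3e-08 in KO and 1.2e-08 in D395A). Npm1, a nucleolar histone-binding protein, was lower, at -1.06 ± 0.07 in KO (adjusted p = 2.5e-09) and -0.70 ± 0.07 in D395A (adjusted p = 2e-07).

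Of 12 tested histone variant genes that are expressed outside S phase, 4 were called higher and 3 lower in KO and 5 higher and 3 lower in D395A. The shares over all genes were 30.4% higher and 29.2% lower in KO, and 33.5% and 30.7% in D395A. H1f0, a linker variant known from resting and differentiating cells, was at 187 and 179 CPM in KO, 179 and 172 CPM in D395A and 16.3 and 17.0 CPM in WT. Both mutant groups were far above WT, at 3.45 ± 0.08 in KO (adjusted p = 2e-13) and 3.40 ± 0.08 in D395A (adjusted p = 6.6e-14). This change was larger than that of any linker gene among the replication-dependent members. H3f3b, one of the genes for the replication-independent H3 variant, was at 268 and 299 CPM in KO, 353 and 357 CPM in D395A and 653 and 680 CPM in WT. Its log2 fold changes were -1.23 ± 0.07 in KO (adjusted p = 1.4e-09) and -0.91 ± 0.07 in D395A (adjusted p = 3.3e-08). H3f3a, another gene for this variant, was not called in KO (-0.10 ± 0.07, adjusted p = 0.23). In D395A H3f3a was called higher (0.33 ± 0.07, adjusted p = 0.00044).

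S phase genes other than histones were mostly called lower in both mutant groups. Of 52 tested, 3 were called higher (5.77%, against 30.4% of all genes) and 42 lower (80.8%, against 29.2%) in KO. In D395A 4 were called higher (7.69%, against 33.5%) and 41 lower (78.8%, against 30.7%). The medians were -0.49 in KO and -0.45 in D395A. Their summed level was 6370 and 6580 CPM in KO, 6560 and 6820 CPM in D395A and 9360 and 9200 CPM in WT. Gins3, a subunit of the replicative helicase complex, was lower, at -1.58 ± 0.11 in KO (adjusted p = 6.4e-09) and -1.34 ± 0.11 in D395A (adjusted p = 3.3e-08). The exceptions included Tk1, thymidine kinase, at 0.86 ± 0.07 in KO (adjusted p = 2.3e-08), and Fen1, a flap endonuclease, at 0.95 ± 0.06 in D395A (adjusted p = 4.8e-09). In D395A against KO, 17 of the 52 were called higher (32.7%, against 23.3% of all genes) and 6 lower (11.5%, against 21.5%). The median there was 0.07.

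Among 25 tested G2 and M phase genes, 3 were called higher and 13 lower in KO (median -0.24) and 2 higher and 20 lower in D395A (median -0.47). Over all genes the shares were 30.4% higher and 29.2% lower in KO, and 33.5% and 30.7% in D395A. Top2a, the topoisomerase that untangles replicated chromosomes, was at -1.03 ± 0.07 in KO (adjusted p = 1.1e-08) and -1.37 ± 0.07 in D395A (adjusted p = 4.6e-10). Cdc25b, a phosphatase of mitotic entry, was at 1.53 ± 0.07 in KO (adjusted p = 7.4e-11) and 0.96 ± 0.07 in D395A (adjusted p = 1.2e-08). The shares of cells in each phase were not measured, and whether they differ between groups was not tested.

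**Figure D5:**
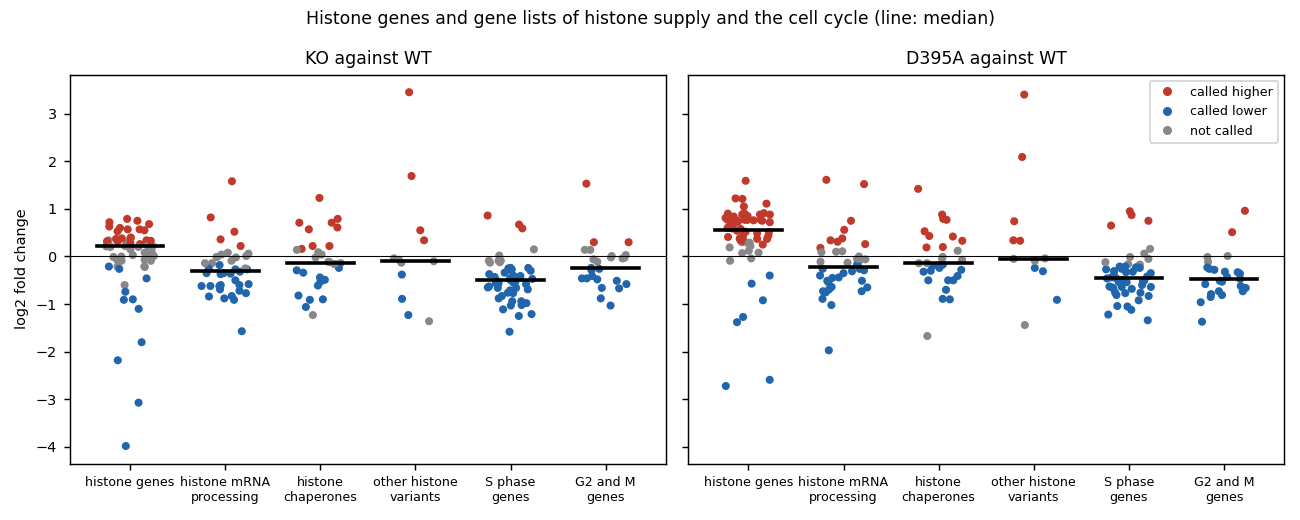
Log2 fold change (vertical axis) of single genes in KO against WT (left) and D395A against WT (right) for the 60 histone genes and 5 gene lists (horizontal axis), with a line at each median. Red and blue mark genes called higher and lower. The histone medians are 0.21 and 0.56, and the S phase medians -0.49 and -0.45.

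Embryonic stem cell markers were present in all groups but not at one level. Of 12, 5 were called higher and 3 lower in KO, and 1 higher and 10 lower in D395A. Their summed level was 7060 and 7150 CPM in KO, 3050 and 3320 CPM in D395A and 6190 and 6210 CPM in WT. Summed markers of other cell types were between 13.8 and 90.3 CPM per library for feeder fibroblasts (19.9 to 30.8), primitive endoderm (13.8 to 46.5), trophoblast (63.0 to 83.3) and neural cells (55.6 to 90.3), and none of these 4 lists had a marker at 0 counts over all libraries. In D395A, 3 of 8 tested fibroblast markers were called higher and 3 lower, 2 of 7 primitive endoderm markers higher and 2 lower, 4 of 7 trophoblast markers higher and 1 lower, and 6 of 9 neural markers higher and 2 lower. In KO the counts were 4 higher and 2 lower, 2 and 2, 2 and 1, and 0 and 2, in the same order, and for the neural list edgeR had 0 higher at an unadjusted p under 0.05, as did DESeq2 and limma-voom. For comparison with all these marker counts, 30.4% of all genes were called higher and 29.2% lower in KO, and 33.5% and 30.7% in D395A. The part of these marker differences in the histone values was not tested.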

How the data were processed

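The deposited tables hold raw read counts per gene symbol, 1 table per library. Per the submitters' processing notes, the authors used Trimmomatic 0.36, STAR 2.7 and HTSeq 0.11.2 with mouse build mm10, and per the labels' protocols the kit marks strand. Which annotation and strand setting the counting used is not given in the sources used here. The 5 summary lines of each table stayed out of library sizes. They covered 22.34% to 37.33% of reads outside genes and 5.34% to 6.42% placed in several positions. Genes with at least 10 counts over the 6 libraries (17546) entered 1 edgeR 4.0.16 quasi-likelihood model (R 4.3.3) with TMM factors and a term per group, and p-values were adjusted by Benjamini-Hochberg over all genes, with a call at 0.05. CPM values use the same factors. The script was tested on simulated data. Alternatives used DESeq2 1.42.0, limma 3.58.1 voom, other filters and scaling, 2 groups alone, a replicate block and each library left out. Coordinates and exons come from GENCODE M21.

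The members and lists were chosen with earlier results of these data known. Named genes are Mettl3, all linker genes, the 2 members of highest mean CPM and the largest called rise and fall of each core class and comparison, members called in opposite directions against WT, 5 histone processing genes, and the largest called rise and fall of the histone mRNA, chaperone, variant, S phase and G2 and M lists. No 2 libraries of a group agreed within sampling noise: a chi-square test over genes gave 3.19 (WT) to 11.1 (D395A) per degree of freedom, and over the 60 members 48.2 in KO, 31.8 in D395A and 5.28 in WT.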

Additional observations from a re-analysis of the deposited data

Results flagged for a closer look

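Hist1h1e and Hist1h2be were called lower in KO and higher in D395A against the same WT libraries, and D395A tested against KO called both. Hist1h1e was higher in D395A than in KO by 1.07 ± 0.09 on the log2 scale (edgeR adjusted p = 1.2e-07), with 609 and 503 CPM in D395A and 277 and 253 CPM in KO. Hist1h2be was higher by 0.98 ± 0.08 (edgeR adjusted p = 1.5e-07), with 278 and 240 CPM in D395A and 129 and 133 CPM in KO. Over the 14 alternatives the difference between D395A and KO lay between 0.92 and 1.20 for Hist1h1e and between 0.87 and 1.08 for Hist1h2be, and both stayed called. The fall in KO against WT was small, and that call was lost in 3 alternatives for Hist1h1e and in 2 for Hist1h2be. The annotated exons of the pair overlap.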

How the results depend on the processing

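The count of members called higher in KO against WT (23) was 13 with DESeq2's Wald test and 8 to 30 over the fits that leave out 1 library, with 8 without WT replicate 1 and 13 without WT replicate 2. Its count of members called lower (11) was 8 to 14 over those fits and 11 with DESeq2. In D395A against WT the counts were 37 to 50 higher (43 with all libraries) and 7 to 9 lower (7 with all libraries). In D395A against KO, the 40 called higher were 23 with DESeq2, 23 in the fit of these groups alone and 19 to 53 with 1 library left out, with 19 without D395A replicate 1. The 0 called lower became 3 without D395A replicate 1 and 1 without KO replicate 1, a range of 0 to 3. Fits that leave out a library have fewer samples, and what else lowers these counts was not tested. Hist1h3c in D395A against KO, -0.03 with all libraries (adjusted p = 0.87), was 0.21 without D395A replicate 2 and -0.31 without D395A replicate 1 (adjusted p over its alternatives 0.0005 to 0.95). Other filters, DESeq2's size factors, limma-voom and the replicate block kept each of these counts over all members within 1.5 times. Counts by class moved further. In KO against WT, H2A genes called higher (3) were 9 without the count filter, 6 in the fit of these groups alone, 5 with the replicate block and 1 with DESeq2, which also gave 1 for H1 (2), 2 for H3 (5) and 3 for H4 (7). H1 genes called lower (1) were 2 without the filter or with the block and 3 with limma-voom or these groups alone, and the 0 H4 genes called lower were 2 with these groups alone and 1 without the filter, at a floor of 1 CPM, with limma-voom or with the block. In D395A against KO, DESeq2 gave 2 for H1 (4), 5 for H2A (13), 2 for H3 (7) and 3 for H4 (5), these groups alone gave 2, 6, 3 and 2, and H4 was 12 without the filter and 8 with the block.

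With the replicate block, 27 members were called higher and 13 lower in KO against WT, 45 and 7 in D395A against WT, and 45 and 0 in D395A against KO. Deviations of same-numbered libraries correlated at 0.029, -0.0249 and -0.126 in the 3 comparisons, and the labels give the numbers no shared source, so the numbers were not taken as pairs. Among members with at least 50% unique words, a choice made after seeing the data, 13 were called higher and 9 lower in KO and 25 and 6 in D395A. The number of libraries, 2 per group, limits every test here, and for near-identical copies the authors' read assignment limits the level of a single gene.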
